A study of Mus musculus with 6 samples.

Results

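The genes described here make up a provisional, loosely woven extracellular matrix, and were 9 of the 24568 gene symbols in the deposited matrix: Tnc, Has2, Vcan, Hapln1, Cd44, Fn1, Fbn1, Fbn2 and Postn. They were chosen by symbol, with earlier results of these data known, and all 9 had counts under every barcode suffix. Cells came from the small intestine of fetal mice of strain C57/BL6 carrying Pdgfra-H2BGFP, in which Pdgfra, the receptor for platelet-derived growth factor A in mesenchyme, drives a nuclear green fluorescent protein, so all groups share that transgene. The 6 labelled samples form 4 groups: all live cells at E15.5 and E16.5 (2 lanes), enriched cells at those ages (1 lane), all live cells at E13.5, E14.5 and E18.5 (2 lanes), and enriched cells at those 3 ages (1 lane). Enriched cells had been sorted as CD31+, CD45+, Epcam+ or high for the PDGFRA reporter, and lanes of one kind were wells loaded from one pool of embryos. The deposited matrix pools the samples. Its cell barcodes end in 1 of 6 suffixes that no label ties to a sample, so ages, gut segments and sorts could not be assigned and the matrix is 1 sample without replicates.

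The barcode suffixes were used only as technical sets. Their last digit splits the cells into 2 endings, here A and B, and the digit before it gives sets A1, A2, A3, B1, B2 and B3. Sets 3 are compared with sets 1 and 2 of the same ending. The intervals given are at 95%, reflect only the error of counting, and carry no information on differences between embryos. Ages, sequencing runs and gene lists may all differ between the endings, so a difference in level between A and B cannot be told apart from these.

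Tenascin-C, encoded by Tnc, is a large multi-armed glycoprotein that modulates cell adhesion, and in the gut it is known from mesenchyme close to the epithelium. Hyaluronan, a long sugar polymer extruded by the membrane enzyme Has2, is held in place by the proteoglycan versican (Vcan) and the link protein Hapln1 and is bound at the cell surface by Cd44. Fibronectin (Fn1) forms fibrils that cells grip through integrins, the fibrillins (Fbn1 and Fbn2) form microfibrils that scaffold elastic fibres and store growth factors, and periostin (Postn) links tenascin, fibronectin and collagen.

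After filtering, 12608 of 13127 cells were kept. The sets of ending A held 9288884 to 30890827 unique molecular identifiers (UMIs, each a captured transcript molecule), with medians of 7070 to 13574 per cell, and those of ending B held 8172377 to 11070214, with medians of 3548 to 4184. Nearly all cells were taken as mesenchymal: only 1 cluster, of 36 cells in ending B, was set apart, by genes of enteric neurons and glia. Clusters high in markers of PDGFRA-high mesenchyme were not screened for other cells. Of these, A-c2 and A-c12 (below) had 6 and 7 of 7 epithelial markers at least 4-fold above other cells of ending A. Pdgfra stood at 172, 129 and 940 CPM (the gene's UMIs scaled to a common total in each set or cluster) in A1, A2 and A3 and at 105, 113 and 407 in B1, B2 and B3. Markers of other cells also differed between the sets. All 7 epithelial markers had UMIs in each set, and they summed to 48.3, 46.2 and 336 CPM in A1, A2 and A3 and to 38.8, 38.9 and 106 in B1, B2 and B3. All 5 enterocyte markers had UMIs in each set too, and summed to 492, 472 and 2327 CPM in ending A and to 35.2, 32.1 and 55.6 in ending B. All 7 endothelial markers summed to 8.19, 8.42 and 65.2 CPM in ending A and to 18.2, 16.7 and 50.4 in ending B. The 5 red blood cell markers summed to 25.4, 32.6 and 36.2 CPM in ending A and to 1859, 1802 and 3715 in ending B. The 21 cell cycle genes went the other way, with 3731, 3643 and 1684 CPM in ending A and 2650, 2426 and 894 in ending B. The 8 smooth muscle markers were lower too, with 1862, 1926 and 890 CPM in ending A and 1464, 1480 and 555 in ending B. The part of these differences in the results on sets was not tested.

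Tnc was concentrated in set A3. It stood at 13.4 CPM in A1 (interval 12.1 to 14.7, 413 UMIs), 12.5 in A2 (11.3 to 13.9, 360 UMIs) and 132 in A3 (125 to 140, 1228 UMIs). Cells with at least 1 Tnc UMI made up 9.76% of A1, 10.9% of A2 and 37.8% of A3, and 3.01%, 3.17% and 20.1% once every cell had been thinned to 2000 UMIs. The levels in A1 and A2 did not differ beyond their intervals, and A3 lay far above both. The log2 ratio of A3 to A1 and A2 was 3.35 (3.22 to 3.48), which is a 10.2-fold difference.

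In ending B, Tnc was scarce. Levels were 3.38 CPM in B1 (34 UMIs), 4.06 in B2 (45 UMIs) and 9.30 in B3 (76 UMIs), and thinned shares of cells were 0.637%, 0.925% and 1.71%. The direction matched ending A, with a log2 ratio of 1.31 (0.84 to 1.79), but no set of ending B reached 10 CPM, the minimum used here to call a difference. Of the Tnc UMIs of A3, 95.5% came from 1 cluster of cells described below. That cluster was picked as the one highest in Tnc, so leaving it out had to lower the ratio. Without it the log2 ratio of ending A was -0.12. In ending B, without the cluster with the same leading genes, it was -0.66.

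Has2, the hyaluronan synthase, was higher in A3 and in B3. Its levels were 28.3 CPM in A1, 24.1 in A2 and 92.8 in A3, with 873, 692 and 862 UMIs. In ending B they were 30.0 in B1, 29.5 in B2 and 59.5 in B3, with 302, 327 and 486 UMIs. Unlike Tnc, Has2 was thus at a similar level in the 4 sets 1 and 2 of both endings. The log2 ratio was 1.82 (1.70 to 1.94) in ending A and 1.00 (0.82 to 1.17) in ending B, where the 1.997-fold difference fell just under the 2-fold line used for calls. Thinned shares of cells were 4.92%, 4.32% and 14.0% in A1, A2 and A3, and 5.32%, 5.55% and 10.0% in B1, B2 and B3.

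Cd44, the hyaluronan receptor, was also higher in both. It stood at 18.0, 13.6 and 44.4 CPM in A1, A2 and A3 and at 17.8, 20.1 and 42.3 in B1, B2 and B3, so that A3 and B3 were nearly level and did not differ beyond their intervals. Its log2 ratios were 1.48 (1.31 to 1.65) and 1.16 (0.95 to 1.37).

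The hyaluronan-binding partners differed from each other. Vcan was at 415, 444 and 410 CPM in A1, A2 and A3, a log2 ratio of -0.06 (-0.11 to -0.02) that changed sign, to 0.03, when scaled to the median gene. In ending B, Vcan was at 111, 122 and 182 CPM, a log2 ratio of 0.64 (0.55 to 0.73). Hapln1, the link protein, was rare and lower in A3 and B3, at 3.98, 4.14 and 1.29 CPM in A1, A2 and A3 and 2.59, 1.81 and 0.489 in B1, B2 and B3. Its log2 ratios of -1.65 (-2.62 to -0.82) and -2.15 (-4.09 to -0.70) rest on only 12 and 4 UMIs in A3 and B3.

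Fn1 differed little between sets. It stood at 320, 296 and 262 CPM in A1, A2 and A3, a log2 ratio of -0.23 (-0.29 to -0.17), and at 189, 202 and 187 in B1, B2 and B3, where the ratio of -0.06 (-0.15 to 0.02) did not exclude 0.

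The fibrillins went opposite ways. Fbn2, the fibrillin of the embryo, was at 243, 233 and 524 CPM in A1, A2 and A3 and at 284, 278 and 638 in B1, B2 and B3. Fbn1, the fibrillin that persists in the adult, was at 152, 147 and 109 CPM in A1, A2 and A3 and at 125, 133 and 60.4 in B1, B2 and B3. The log2 ratios of Fbn2 were 1.14 (1.09 to 1.18) and 1.18 (1.13 to 1.24), and those of Fbn1 were -0.45 (-0.55 to -0.36) and -1.10 (-1.24 to -0.96).

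Postn differed between the endings. Its levels were 175, 166 and 198 CPM in A1, A2 and A3, a log2 ratio of 0.22 (0.14 to 0.29). They were 99.1, 95.8 and 44.1 CPM in B1, B2 and B3, a log2 ratio of -1.14 (-1.31 to -0.98). The small excess in A3 was not seen without the cluster that held most Tnc, where the log2 ratio was -0.67, and it was -0.21 among cells with no UMI of the cycle genes Mki67 or Top2a.

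**Figure D1:**
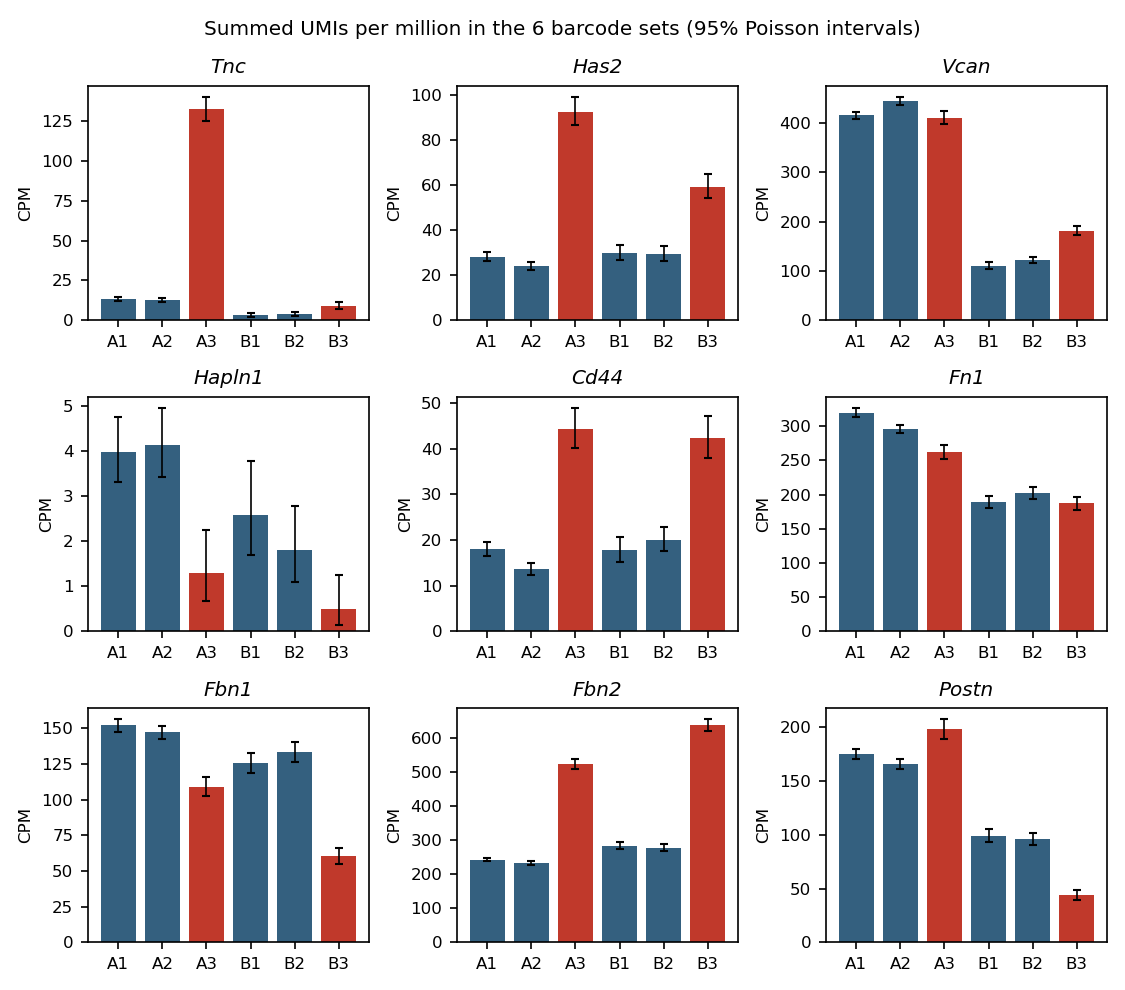
Level of each gene (y axis, CPM from summed UMIs, each panel on its own scale from 0) in the 6 barcode sets (x axis). Bars of sets A3 and B3 are red, those of the other sets blue, and error bars are 95% Poisson intervals. Tnc stands at 132 CPM in A3 against 13.4 or less elsewhere, while Fbn2 and Cd44 are higher in both red bars and Hapln1 is lower in both.

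By the rule of at least 2-fold with at least 10 CPM on the higher side, 4 of the 8 genes that reached 10 CPM in ending A were called higher in A3 (Tnc, Has2, Cd44 and Fbn2) and none lower. Over all 9591 genes of that comparison, 10.9% were higher and 6.07% lower by the same rule. In ending B, 2 of 7 were called higher (Cd44 and Fbn2) and 2 lower (Fbn1 and Postn), against 9.15% and 5.66% of 8654 genes. The 9 genes were chosen with earlier results of these data known, so such counts are only a description. The median log2 ratio of the genes that reached 10 CPM was 0.68 in ending A and 0.64 in ending B, beside -0.03 and 0.14 over all genes. Among cells with a Pdgfra UMI at 2000 UMIs, 4 of the 8 genes that reached 10 CPM were called higher in A3 and 0 lower, against 11.3% and 7.43% of 9637 genes (18.8% in all). In ending B, 0 of 7 were called in such cells, against 4.77% higher and 3.74% lower of 8589 genes (8.51% in all), and Fbn2 had a log2 ratio of 0.92 and Cd44 one of 0.89.

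Clustering the cells without these genes or the related lists showed where each is made. Ending A gave 15 clusters of at least 50 cells and ending B gave 10. They are called by number and by leading genes. Clusters are descriptions of pooled cells, and a level inside a cluster has no replicate.

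Tnc had its highest level in cluster A-c2, 714 cells led by Npnt, Slco2a1 and AW112010. It reached 262 CPM there (247 to 277), and 60.2% of the cells had a UMI at a median depth of 6470.5 UMIs. In A-c10, a cluster of dividing cells led by Cenpa and Ccnb2 with a median depth of 12983 UMIs, Tnc was at 1.02 CPM and 1.33% of cells had a UMI. A-c10 was the cluster lowest in Tnc and held 157, 144 and 0 cells of A1, A2 and A3. Its share is therefore no background for cells of A3. Of the 12 markers fixed for PDGFRA-high mesenchyme, 11 were at least 2-fold higher in A-c2 than in the other cells of ending A. So were all 7 epithelial and all 5 enterocyte markers, and their part in the Tnc level was not tested. This cluster held 56.8% of the cells of A3 but 95.5% of its Tnc UMIs.

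The cluster was unevenly shared between the sets. A-c2 took only 0.935% of the cells of A1 and 1.10% of those of A2. Inside the cluster, Tnc stood at 218 CPM in A1 (36 UMIs), 108 in A2 (19 UMIs) and 270 in A3 (1173 UMIs). In A-c2 and A-c12, epithelial markers summed to 371 and 346 CPM and enterocyte markers to 2584 and 2262 CPM, while Tnc was at 262 and 9.0 CPM in them.

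Another site of Tnc had far less Pdgfra than A-c2. In A-c9, 303 cells led by Dpt, Aspn and Mgp, Tnc was at 117 CPM (104 to 131) while Pdgfra was at 108 CPM, against 1268 in A-c2. Over all cells of A1 and A2, Pdgfra was at 172 and 129 CPM. A-c9 gave 35.1% of the Tnc UMIs of A1 and 41.7% of those of A2 from 6.38% and 6.82% of their cells. Lower levels were found in A-c15 (94.7 CPM in 53 cells led by Igfbp3 and Col18a1), in A-c14 (48.6) and in A-c4 (38.5), both led by Col6a5. All other clusters of at least 50 cells in ending A were at or under 9.0 CPM.

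In ending B the highest Tnc was again in the cluster led by Npnt and Slco2a1. In these 1475 cells of B-c1 it stood at 17.3 CPM (13.9 to 21.4), with 17.3, 17.7 and 17.3 CPM in B1, B2 and B3, from 8, 11 and 68 UMIs. B-c1 held 89.5% of the Tnc UMIs of B3 with 52.5% of its cells. The next cluster, B-c2, led by Ogn, Cxcl13 and Aspn, was at 5.38 CPM.

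Has2 marked other cells. Its highest level in ending A was 332 CPM (303 to 363) in A-c12, 209 cells led by Opcml, Gadd45a, Sfrp2 and Fgf9 and with Bmp2 among their 10 leading genes, and 71.3% of these cells had a UMI. The sets were at 237, 229 and 349 CPM inside it. A-c13, 194 cells led by Bmp3 and Gadd45a, followed at 125 CPM. These 2 clusters gave 49.8% and 24.5% of the Has2 UMIs of A3, but 2.98% and 2.63% of those of A1 and 3.47% and 2.60% of those of A2. In A1 and A2 the UMIs of Has2 were spread over many clusters, with most in A-c6 (18.1% and 19.7%). In A-c9, which was rich in Tnc, a single Has2 UMI was found in 303 cells.

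In ending B, Has2 peaked in B-c4, 686 cells led by Gadd45a and Opcml, at 155 CPM (141 to 171). B-c9 (124 CPM, led by Calb1 and Sfrp2) and B-c8 (78.6, led by Nbl1 and Procr) came next. Inside B-c4, Has2 was not highest in B3: B1 was at 204 CPM, B2 at 180 and B3 at 141. The excess of B3 over B1 and B2 therefore did not appear within this cluster, which made up 22.5% of B3 but 3.93% of B1 and 4.33% of B2.

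A-c12 and A-c2 both carried high Pdgfra, at 1097 and 1268 CPM, and differed in their matrix genes. Has2 was at 332 CPM in A-c12 and 26.4 in A-c2, and Tnc was at 9.0 CPM in A-c12 and 262 in A-c2. The same contrast held in ending B: Has2 was at 155 CPM in B-c4 and 24.3 in B-c1, and Tnc, with only 2 UMIs in B-c4, was at 0.747 CPM there and at 17.3 in B-c1.

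**Figure D2:**
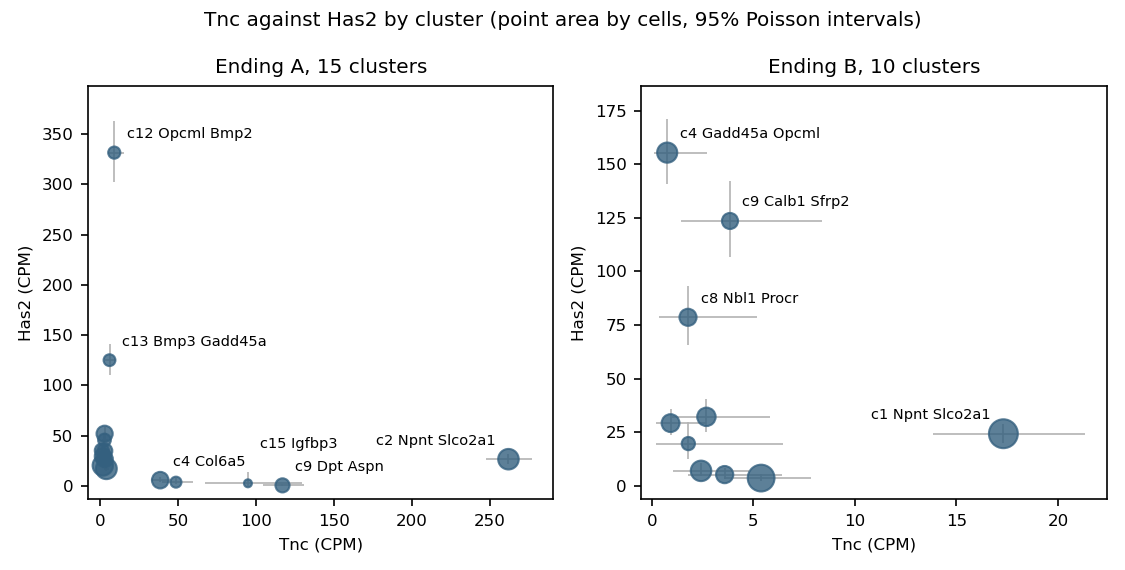
Level of Tnc (x axis, CPM) against Has2 (y axis, CPM) in each cluster of at least 50 cells, with ending A on the left and ending B on the right. Point area follows the number of cells and lines are 95% Poisson intervals. No cluster is high in both genes: the points at 262 CPM of Tnc (A-c2) and 332 CPM of Has2 (A-c12) lie along opposite axes, as do B-c1 and B-c4.

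The other genes split between these sites. Fbn2 had its highest levels in clusters rich in Has2, A-c12 (786 CPM), A-c13 (704), B-c4 (855) and B-c9 (713). Over all clusters the likeness of Fbn2 to Has2 was weak in ending A (Pearson's r of log2(CPM + 10) 0.35 over 15 clusters) and high in ending B (0.90 over 10), while Vcan and Has2 had r of 0.57 and 0.59, and clusters share libraries. Fbn1, Fn1, Postn and Hapln1 had theirs in A-c9, at 608, 698, 1040 and 25.5 CPM, and again in B-c2, at 208, 273, 181 and 4.58 CPM. Both are clusters whose leading genes include Aspn. Postn in A-c9 was detected in 97.7% of cells, and in A-c2 it was at 306 CPM.

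Vcan was found in every cluster. In ending A it was highest in A-c6 (667 CPM, led by Ccnd1 and Hmga2) and lowest in A-c15 (55.8 CPM). Over the clusters of at least 50 cells in ending B its range was narrow, from 95.4 CPM to 191 CPM in B-c1. Cd44 was lowest in A-c1, A-c6 and A-c10, at 5.62 to 5.64 CPM, and in B-c2, at 4.78 CPM. It reached 70.4 CPM in A-c15, 51.6 in A-c2, 45.7 in A-c12, 43.0 in B-c1 and 44.8 in B-c9. In A-c9, the Tnc site with less Pdgfra than A-c2, Cd44 was only at 10.8 CPM (28 UMIs).

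**Figure D3:**
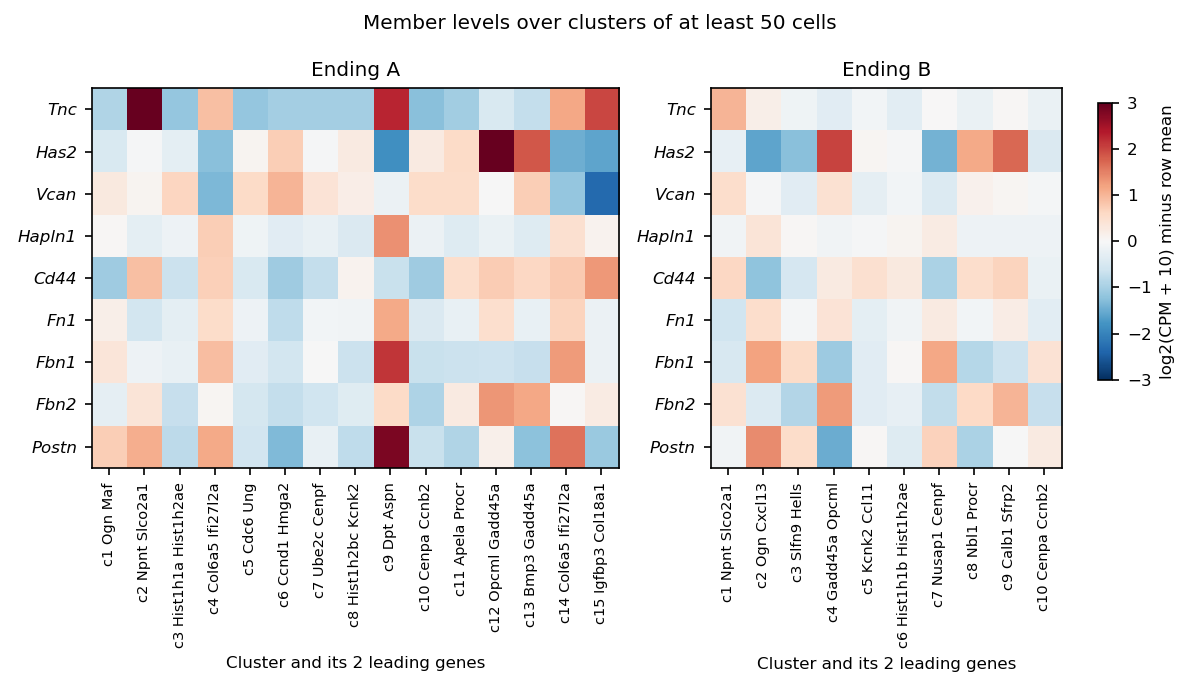
Level of each gene (rows) in the clusters of at least 50 cells (columns, with their 2 leading genes) of ending A (left) and ending B (right). Colour is log2(CPM + 10) minus the mean of the row in that ending, red above and blue below, cut at 3 either way. Tnc is reddest in the Npnt Slco2a1 cluster of both endings, Has2 and Fbn2 in the clusters with Gadd45a, and Fbn1, Fn1, Hapln1 and Postn in the cluster with Aspn.

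The promoters of Tnc and Postn are shown because the 2 genes, whose proteins bind each other in the matrix, were found together in single cells more often than their shares in each set would give. Both were high in A-c2 and A-c9, and within clusters the pair was not computed. RefSeq promoter entries on GRCm38 were present for 6 of the 9 genes. RefSeq gives 2 starts for each of these genes, and 1 of each is shown: the outermost for Tnc, and for Postn the downstream one, 1840 bases inside the gene. The outermost start of Postn has no TATAAA in the 250 bases before it, whereas both starts of Tnc have 1, so the motif in Postn depends on the start shown. Each sequence is the 150 bases before that start, 5′ to 3′ on the gene's strand, and capitals mark TATAAA.
Tnc, chr4:64047016-64047165, minus strand: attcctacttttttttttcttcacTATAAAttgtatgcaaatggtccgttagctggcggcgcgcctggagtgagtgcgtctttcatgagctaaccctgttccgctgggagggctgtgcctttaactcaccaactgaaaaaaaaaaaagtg
Postn, chr3:54360957-54361106, plus strand: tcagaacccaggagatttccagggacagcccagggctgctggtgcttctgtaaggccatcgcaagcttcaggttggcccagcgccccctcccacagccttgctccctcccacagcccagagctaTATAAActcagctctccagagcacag
TATAAA starts at position -26 in Postn and at position -126 in Tnc, counted from the start. Searched on both strands over the 250 bases before the start, TATAAA occurred in 12.4% of 32851 RefSeq promoters. The genes themselves lie at chr4:63959785-64047015 (Tnc) and chr3:54359267-54391041 (Postn), and Has2 lies at chr15:56665627-56694546, all protein-coding in the GENCODE annotation of that build. Fn1 lies at chr1:71585473-71653280, Cd44 at chr2:102811141-102901669 and Fbn1 at chr2:125300594-125506485. Vcan and Hapln1 lie close together, at chr13:89655309-89743027 and chr13:89540529-89611832.

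Tnc and Has2 were rarely found in the same cell. At 2000 UMIs per cell, 15 cells of ending A had both, where their shares in each set would give 39.5 if they were independent. In A3, 9.15% of the 164 cells with Has2 also had Tnc (5.21% to 14.6%), against 21.9% of the 1010 cells without Has2 (19.4% to 24.6%). In A1, 0 of 121 cells with Has2 had Tnc, and in A2 it was 0 of 90. If each 0 is taken to allow 3 counts, these shares could reach 2.48% and 3.33%, less than the exact limits that follow. Among cells without Has2, 3.17% in A1 and 3.31% in A2 had Tnc. The exact intervals of the shares with Has2 reached 3.00% in A1 and 4.02% in A2 and overlapped those without, so at this depth neither set alone showed a difference.

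The ratio of these shares, pooled over the sets of an ending by the Mantel-Haenszel method, was 0.345 in ending A (0.209 to 0.571). In ending B, 1 cell had both against 5.74 if independent, a ratio of 0.160 (0.0218 to 1.17) that did not exclude 1. Over 20 thinning draws the mean ratio was 0.297 in ending A and 0.208 in ending B. Within clusters of ending A the ratio was 0.995, so in that ending the 2 genes were separated between clusters. Inside A-c2, 35.3% of the 34 cells with Has2 had Tnc and 32.7% of the cells without it did. Ending B held too few cells with both genes to tell. B-c1 had 0 such cells against 2.02 if independent, and B-c9 had 1 against 0.847.

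**Figure D4:**
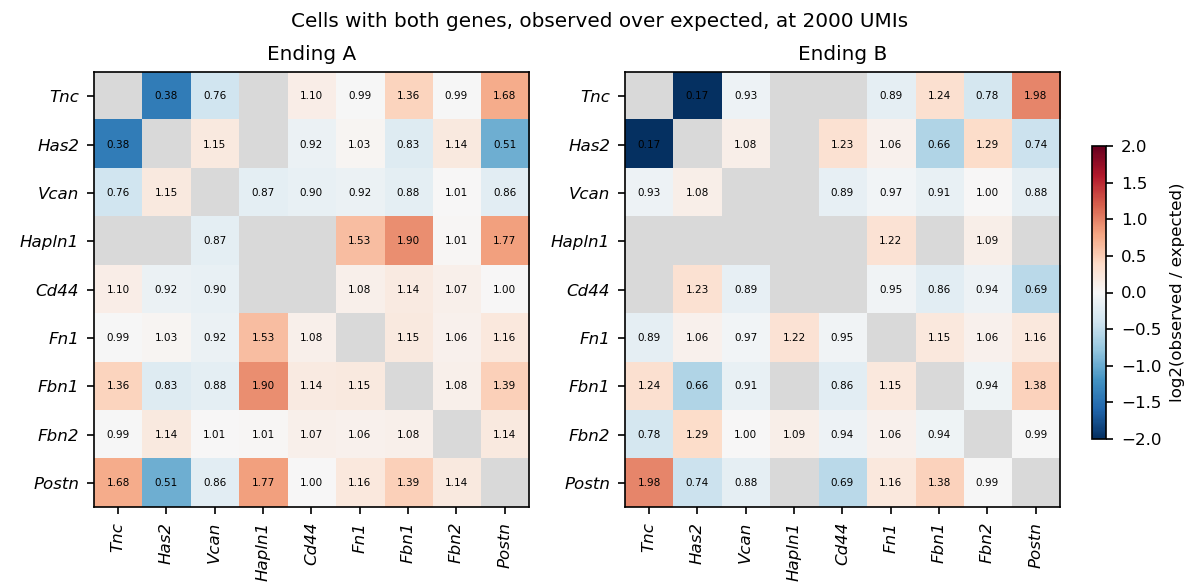
Number of cells with a UMI of both genes over the number that their shares within each set would give if independent, at 2000 UMIs per cell, for each pair of the 9 genes in ending A (left) and ending B (right). Colour is the log2 of that ratio, the ratio is printed in each square, and pairs with fewer than 5 such cells under independence are grey. Tnc with Has2 is the lowest square in both endings, and Tnc with Postn is well above 1 in both.

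Among the other pairs, Tnc and Postn shared 156 cells of ending A against 92.8 if independent, and 17 against 8.59 in ending B. Has2 and Postn shared fewer, with 47 cells against 93.0 and 42 against 56.7. For Has2 and Fbn2 the numbers were 198 against 174 (A) and 320 against 248 (B). Fbn1 and Postn shared 486 against 350 and 247 against 179. Has2 and Vcan shared 206 against 180 and 124 against 115. Tnc and Vcan shared 136 cells against 179 in ending A, but 17 against 18.3 in ending B. None of these other pairs was computed within clusters.

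Pdgfra marks the cells that the reporter was made to show, and the question was whether Tnc or Has2 is found in the same cells at matched depth. Among A3 cells thinned to 2000 UMIs, 21.7% of those with a Pdgfra UMI had Tnc (19.0% to 24.5%) and 14.5% of those without (10.4% to 19.4%). In A1 the shares were 2.96% with and 3.03% without, and in A2 they were 3.86% and 3.00%. In ending B they were 1.28% and 0.498% in B1, 1.69% and 0.745% in B2, and 1.93% and 1.45% in B3. Tnc was thus also found in cells without a Pdgfra UMI at this depth. Of all A3 cells at full depth, however, 97.6% had a Pdgfra UMI, so most of the 255 thinned A3 cells without one carried Pdgfra. The intervals of the 2 shares overlapped in all 6 sets, in A3 only at their ends.

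The pooled ratio of shares for Tnc was 1.31 in ending A (1.03 to 1.67) and 1.71 in ending B (1.08 to 2.73). It depended on the draw: over 20 draws the mean was 1.19 in ending A, with a range of 0.938 to 1.5, and 1.72 in ending B, with a range of 1.19 to 2.52. Within clusters of ending A it was 1.01, and inside A-c2, 32.5% of the cells with a Pdgfra UMI and 35.3% of those without had Tnc. Inside B-c1, the cluster of ending B highest in Tnc, the shares were 3.33% (29 cells) and 3.04% (18 cells).

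The share of Tnc was higher at high Pdgfra counts in A3. It was 14.5% at 0 Pdgfra UMIs, 14.2% at 1, 18.1% at 2 and 30.0% at 3 or more (25.4% to 34.9%). In the same set Has2 was found in 12.2%, 14.2%, 18.1% and 12.5% of these cells, with no such step at the top. The number of Pdgfra UMIs in a thinned cell follows the clusters, and within clusters this was not computed.

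Has2 was found with Pdgfra somewhat more often in the sets with little Pdgfra. Its shares with and without a Pdgfra UMI were 6.52% and 4.32% in A1, 6.51% and 3.78% in A2, 8.72% and 4.59% in B1, and 8.05% and 4.97% in B2. In A3 they were 14.5% and 12.2%, and in B3 9.76% and 10.4%, with widely overlapping intervals. The ratio of shares was 1.59 over A1 and A2 (1.20 to 2.1) and 1.74 over B1 and B2 (1.34 to 2.27), against 1.19 in A3 (0.826 to 1.72) and 0.942 in B3 (0.733 to 1.21). Over whole endings it was 1.42 (1.14 to 1.77) and 1.24 (1.04 to 1.49), with means of 1.15 and 1.37 over 20 draws. The draws ranged from 0.923 to 1.43 in ending A, where the draw used for the values above lay near the top, and from 1.20 to 1.55 in ending B. Within clusters of ending B the ratio was 1.00. The clusters of ending A went both ways. In A-c13, 28.1% of the cells with a Pdgfra UMI and 15.4% of those without had Has2. In A-c12 these shares were 39.9% and 60.0%.

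**Figure D5:**
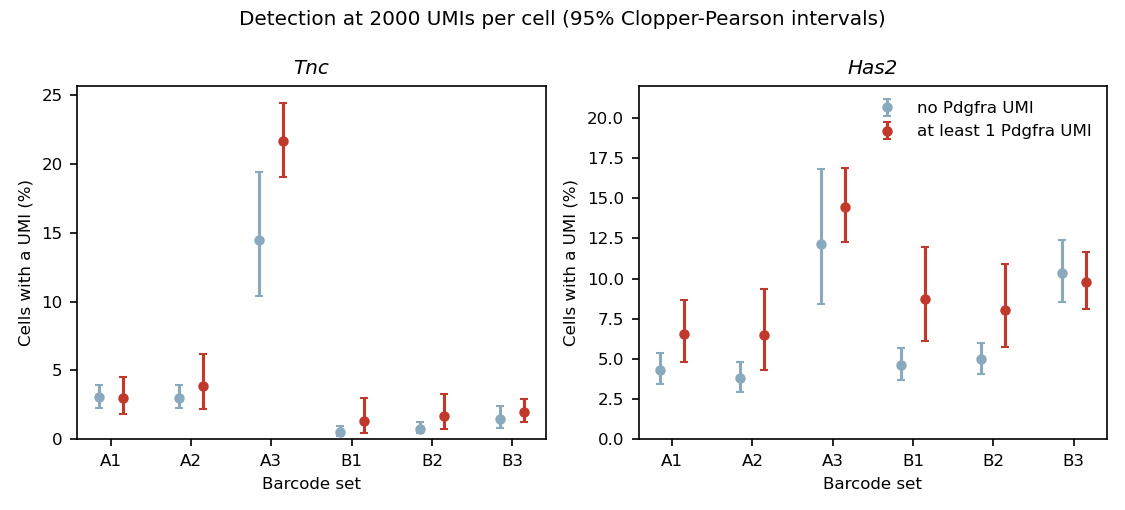
Share of cells with a UMI of Tnc (left) or Has2 (right) among cells with no Pdgfra UMI (pale blue) and with at least 1 (red), in the 6 barcode sets (x axis), at 2000 UMIs per cell. Bars are 95% Clopper-Pearson intervals. Tnc is at 21.7% and 14.5% in A3 and under 4% elsewhere, and the intervals of the Has2 pairs overlap in all sets but B1.

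The other genes had ratios on both sides of 1. Over 20 draws the mean ratios of shares in endings A and B were 1.03 and 1.20 for Vcan, 1.07 and 1.38 for Cd44, 1.03 and 1.09 for Fbn2, 0.944 and 0.813 for Fn1, 0.920 and 0.724 for Fbn1, 0.947 and 0.793 for Postn, and 0.690 and 0.793 for Hapln1, whose draws ranged from 0.202 to 1.44 and from 0.258 to 2.01. The means for Fn1, Fbn1, Postn and Hapln1 were below 1 in both endings, but in B3 alone the ratio for Postn was 1.43, with an interval from 1.04 upward. Over all cells of ending A, Tnc was at 86.1 CPM with Pdgfra and 22.9 without, and Has2 at 63.5 and 27.5, where 919 of the 2009 cells with a Pdgfra UMI came from A3. With the sets as strata the ratios of levels were 1.38 and 1.32, and none of the 9 genes differed by 2-fold in either ending. Over all genes such a difference within sets was rare: of 9355 genes in ending A, 0.652% were higher and 0.0534% lower with Pdgfra (0.706% in all), and of 8493 in ending B, 0.118% were higher and 0.718% lower (0.836% in all).

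Genes most like each member over the clusters were ranked by Pearson's r of log2(CPM + 10), taken over 15 clusters of ending A and 10 of ending B and averaged. The clusters of an ending share libraries, so r is only a description. Tnc was most like Slc44a1 (mean r 0.92), Mindy2 and Abi3bp. Has2 was most like Trp53i11 (0.95), Chd7 and Gadd45a. Fbn1 was closest to Col1a1 (0.98), Sparc and Lox, and Postn to Celf2 (0.90), Fbn1 and Col1a1. Fbn2 was closest to Camk2d (0.96), Mtus1 and Col13a1, and Cd44 to Gcnt2 (0.95), Ptger4 and Mapk3. Vcan was closest to Dicer1 (0.88), Pogk and Oaf, Hapln1 to Adamts19 (0.92), Ly6h and Sema3d, and Fn1 to Mfap4 (0.85), Dnajc1 and Lum.

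Around Has2, the other genes of hyaluronan synthesis were not called in either ending. Of 7 synthesis genes 5 reached 10 CPM in each ending, and only Has2 was called, in ending A. Over all genes, 16.9% were called in either direction in ending A and 14.8% in ending B. The synthesis genes are too few to be set apart from these shares. Ugp2, which makes UDP-glucose, had log2 ratios of -0.20 and -0.20 in endings A and B. Among the hyaluronan breakdown genes with at least 20 CPM on 1 side, Hyal2, a hyaluronidase, had the smallest log2 ratios, -0.06 and 0.41. Of 18 hyaluronan-binding genes, 6 reached 10 CPM in ending A and 5 in ending B. Among those with at least 20 CPM on 1 side, Cd44 had the largest ratio in both endings and Hmmr, a receptor that is also a mitotic spindle gene, the smallest, at -0.76 and -1.74. The cell cycle genes were lower in the same sets.

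Around Vcan, few genes of chondroitin sulfate synthesis were called. Among 18 genes, 13 reached 10 CPM in ending A and 11 in ending B. Only Ust, a uronyl 2-sulfotransferase, was called higher, at log2 ratios of 1.63 and 1.93, and 0 were called lower. Over all genes, 10.9% and 9.15% were higher and 6.07% and 5.66% lower, and the list is too short to be set apart from these shares. The smallest ratios were those of 2 sulfotransferases, Chst14 in ending A (-0.24) and Chst15 in ending B (-0.59). The versican-cleaving proteases split: Adamts9 was at 137 CPM in A3 against 37.8 and at 155 in B3 against 43.7, while Adamts1 had log2 ratios of 0.09 and -1.13. Adamts9 (1.86 and 1.83) thus stood higher in A3 and B3 while Vcan, its substrate, had ratios of -0.06 and 0.64.

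Around Tnc and Fn1, 9 of 12 receptor genes reached 10 CPM. Sdc4, a syndecan that binds fibronectin, was called higher in both endings, at 113 CPM against 37.3 and 125 against 51.3. Itga8, an integrin chain that binds fibronectin, tenascin and nephronectin, had log2 ratios of -0.65 and -1.17 and was called lower in ending B. Tnxb, another tenascin, named after its values were seen, was at 3.01 CPM in A3 against 8.91 and at 0.734 in B3 against 2.13, all under 10 CPM and opposite to Tnc.

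Around the fibrillins and Postn, 22 microfibril and elastic fibre genes were listed. Of the 16 that reached 10 CPM in ending A, 3 were called higher and 3 lower, against 10.9% and 6.07% of all genes. Of the 15 in ending B, 1 was higher and 5 lower, against 9.15% and 5.66%. Ltbp3, which holds latent TGF-beta, had a log2 ratio of 1.25 in ending A. Fbln5, an elastic fibre organiser, was at 10.2 CPM against 37.1 in ending A, and Lox, the collagen and elastin crosslinker, was at 5.75 against 55.8 in ending B (-3.28). Of 9 fasciclin and matricellular genes, 7 reached 10 CPM in each ending. Of these, 1 was called higher and 0 lower in ending A, and 1 higher and 5 lower in ending B, beside the same shares of all genes. Tgfbi, the closest relative of Postn, was at 945 CPM in A3 against 274 and at 702 in B3 against 244, opposite in ending B to Postn itself. Ccn1 was lower in ending B (-1.62) and Ccn2 in ending A (-0.94).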

How the data were processed

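Pooled cells were marked with lipid-bound DNA barcodes (MULTI-seq) and captured on a 10x chip, per the labels' protocols. Only 3′ ends were read, so splice forms of Tnc, Fn1, Vcan and Cd44 were not resolved. The submitters' processing notes name Cell Ranger 2.1.1, Seurat and mm10, without their roles. The authors deposited 1 matrix of raw UMI counts, per the file headers, with 34703540 entries above 0. The 2 endings rest on different gene lists (21351 and 18222 symbols with counts, 17403 in both), and older names in the lists were summed with newer ones. Of 13105 distinct barcodes, 22 occurred under more than 1 suffix.

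Cells with under 1000 genes (108) or over 5% mitochondrial UMIs (367) were left out, as were 84 cells called as doublets by Scrublet in scanpy 1.11.5. It called 0.404% of cells in ending A and 0.835% in ending B, where the rate set for it was 5%. These are too few for it to be taken to have worked, so doublets may remain in both endings. Summed UMIs were divided by the set's or cluster's total to give CPM. Levels carry exact Poisson intervals, log2 ratios exact conditional binomial intervals, and shares Clopper-Pearson intervals (scipy 1.17.1). Ratios of shares are Mantel-Haenszel over sets. Thinning drew 2000 UMIs per cell without replacement and left out 41 shallower cells. A count of 0 was taken to allow up to 3 counts. Clusters came from leidenalg 0.10.2 at resolution 1, on 2000 variable genes without the members and lists, 30 components and 15 neighbours. No test was run, since a pooled matrix has no replicates. Scripts were tested on simulated data.

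The members and gene lists were chosen with earlier results of these data known. Besides the members, the text names for each list the genes with the largest and the smallest log2 ratio in each ending among those with at least 20 CPM on 1 side, and the 3 genes most like each member among those with at least 20 CPM in 1 cluster of each ending. A result that this rule selects is not reported here. Alternatives were per-cell means, no cell filter, single control sets, median scaling, non-cycling cells, mesenchyme clusters alone, cells with Pdgfra, no CPM minimum, other thinning depths, a minimum of 2 Pdgfra UMIs, doublets kept, no thinning, and other clusterings. Leaving out the Npnt Slco2a1 cluster, clusters as strata, 20 thinning draws and Tnc with Has2 without thinning were added after the data had been seen.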

Additional observations from a re-analysis of the deposited data

Results flagged for a closer look

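Vcan and Postn differed in direction between the endings, with both single comparisons of A3 against A1 and A2 on one side of 0 and both of B3 against B1 and B2 on the other. The log2 ratio of Vcan was -0.06 in ending A and 0.64 in ending B, but in ending A its direction was not clear: against A1 alone it was -0.02, with an interval from -0.07 to 0.04, and scaled to the median gene it was 0.03. That of Postn was 0.22 in ending A and -1.14 in ending B. The differences between endings were not tested, and the endings also differ in depth, gene list and, possibly, ages.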

How the results depend on the processing

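No paired analysis was possible because the deposited cells cannot be assigned to samples, and no replicate could be left out for the same reason. Of the alternative values for Tnc, Has2, the counts and co-detection, 69 stayed close to the reported value and 26 moved, some of them across 0 or across a ratio of 1, while 1 value called at 2-fold changed sign. Without the Npnt Slco2a1 cluster, the one highest in Tnc, Tnc turned to -0.12 in ending A and was -0.66 in ending B. Has2 was then 2.52 and 1.66. Tnc in ending A was 3.14 with per-cell means and 2.59 in cells without a UMI of Mki67 or Top2a, where Has2 in ending B was 0.74. Has2 in ending A was 1.95 against A2 alone. In cells with a Pdgfra UMI, Has2 was 1.46 in ending A and 0.10 in ending B, Tnc in ending B was 0.52, and the 4 genes called in ending B became 0. With no CPM minimum, the genes past 2-fold went from 1623 to 8990 in ending A and from 1282 to 6359 in ending B. For Tnc with Pdgfra in ending A, the ratio of shares was 1.00 at 3000 UMIs, 1.69 with at least 2 Pdgfra UMIs, 0.654 unthinned and 1.01 within clusters. For Has2 with Pdgfra in ending A it was 0.95 at 1500 UMIs, 1.11 at 3000 and 1.79 unthinned, and in ending B it was 1.02 with at least 2 Pdgfra UMIs, 1.67 unthinned and 1.00 within clusters. For Tnc with Has2 it was 0.102 in ending A and 0 in ending B among cells with no Pdgfra UMI, and 0.995 within clusters of ending A. The causes were not tested. The signs for Cd44, Fbn1, Fbn2 and Hapln1 held under all 9 alternatives in both endings, whereas Fn1 changed sign in both and Vcan and Postn in ending A. At resolutions 0.5 and 1.5 the cluster highest in Tnc was led by Npnt in both endings. At resolution 1.5 the cluster of ending A highest in Has2 held 233 CPM of it and 30.5 of Tnc, and with the members kept among the variable genes 202 and 43.6, against 332 and 9.0 as reported. Tnc in ending B, with 34 to 76 UMIs per set, and Hapln1 are limited by depth.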
